A study of Mus musculus with 12 samples.

Results

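Expression of integrin subunits, laminin chains and the other core genes of the basement membrane was followed across 4 sorted populations. The sample titles call them progenitors, and they came from differentiating mouse embryonic stem cells. The group held every gene whose single annotated symbol named an integrin subunit, a laminin chain or a collagen IV chain, together with Nid1, Nid2, Hspg2 and Agrn, and it left out the integrin-binding Itgb1bp and Itgb3bp genes. These were 45 of the 18193 genes on the array, namely 16 integrin alpha subunits, 9 integrin beta subunits, 10 laminin chains, 6 collagen IV chains, 2 nidogens and 2 proteoglycans. Where a gene had several probe sets, the one with the highest average on the 12 arrays was read. A filter on low values kept 37 of the 45 members, among 13698 genes tested in all, and every count of calls below refers to these 37.

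The source was day 6 embryoid bodies, aggregates of stem cells that differentiate in hanging drops. A dsRed reporter marked the second heart field, which builds the right ventricle and outflow tract, and an eGFP reporter was driven by an enhancer specific to cardiac cells. Flow sorting on both colours gave double-positive (Red+/Green+), red-only (Red+/Green-), green-only (Red-/Green+) and double-negative (Red-/Green-) cells. There were 3 single-colour arrays per population, with the letters A, B and C for the experiment. All 4 populations share both transgenes and 1 culture protocol, and no strain, further genotype or treatment is given in the sources used here. The labels do not say whether the experiments were separate differentiation cultures, so p-values measure the spread between these arrays, which may be technical. A reporter gate can hold several cell types, and in bulk RNA fewer cells of a type and less RNA per cell cannot be told apart.

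Integrins are cell surface receptors built from an alpha and a beta subunit, and the pair decides which matrix protein is bound. Laminins are trimers of an alpha, a beta and a gamma chain that form the first sheet of a basement membrane. Collagen IV makes a second network, and nidogens and the proteoglycans perlecan and agrin link the networks to each other and to cells. In the forming heart such membranes underlie the myocardium, surround endothelial tubes and support the epithelia that neighbour the heart field.

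Linear probe set intensities are given, and the median of all probe sets lay between 6.29 and 6.73 on the 12 arrays. Differences are given as log2(intensity + 4.10), a scale that understates the change of dim genes, with the standard error of the fit. A gene was called where the adjusted p, from limma with Benjamini-Hochberg adjustment over all genes tested, was under 0.05. The sort was checked on 10 cardiomyocyte markers. Their summed intensity was 20090 to 25543 in double-positive cells, 3533 to 5344 in red-only cells, 10192 to 12852 in green-only cells and 370.0 to 593 in double-negative cells. Over all genes, green-only array A was set apart by a spread of deviations from its population mean of 0.192 on the log2 scale against 0.102 to 0.150 on the other arrays. Its summed intensity of 10 epithelial markers was 4447, against 1409 and 1581 on the other green-only arrays, and its sum of 12 endothelial markers was 508, against 1230 and 1213. The double-positive array of experiment A had the widest spread over the members, 0.223, and the highest actin 3' to 5' signal ratio of all arrays, 1.55. Where leaving out either array lost a call of a member, the value without it is given.

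Differences among the 4 populations were common in this group. In the F-test 22 of the 37 members passed (59.5%), against 32.3% of all genes tested. Against double-negative cells, 16 members passed in double-positive cells, of which 14 were higher and 2 lower. Of all genes 31.5% passed in this comparison, 13.9% higher and 17.6% lower. In red-only cells 13 members passed, 10 higher and 3 lower, against a background of 23.6% (10.9% higher and 12.7% lower). In green-only cells 13 members passed, all higher, against a background of 20.7% (9.33% higher and 11.4% lower). At an unadjusted p under 0.05 there were 17 higher and 0 lower in the same limma fit. The share of all genes at that looser threshold is not given here, and the background shares above do not apply to it. All 3 comparisons use the same double-negative arrays. The median difference of the members was 0.21 in double-positive cells, 0.18 in red-only cells and 0.15 in green-only cells, where the median over all genes was -0.01, -0.02 and -0.01.

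Fewer members separated the reporter-positive populations from each other, and the same held for all genes tested. Between double-positive and red-only cells 9 members passed, 5 higher and 4 lower in double-positive cells, against 12.1% of all genes (5.94% higher and 6.15% lower). Between red-only and green-only cells 6 passed, 3 each way, against 3.08% of all genes (1.32% higher and 1.76% lower in red-only cells). Between double-positive and green-only cells 3 passed, 1 higher and 2 lower, against 5.62% of all genes (2.85% higher and 2.77% lower), and 5 passed with the experiment letter as a block. In all, 22 members gave 60 pairwise calls, and the other 15 tested members gave none. The 60 include 3 calls of Itga8, which passed the filter only through its red-only values.

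**Figure D1:**
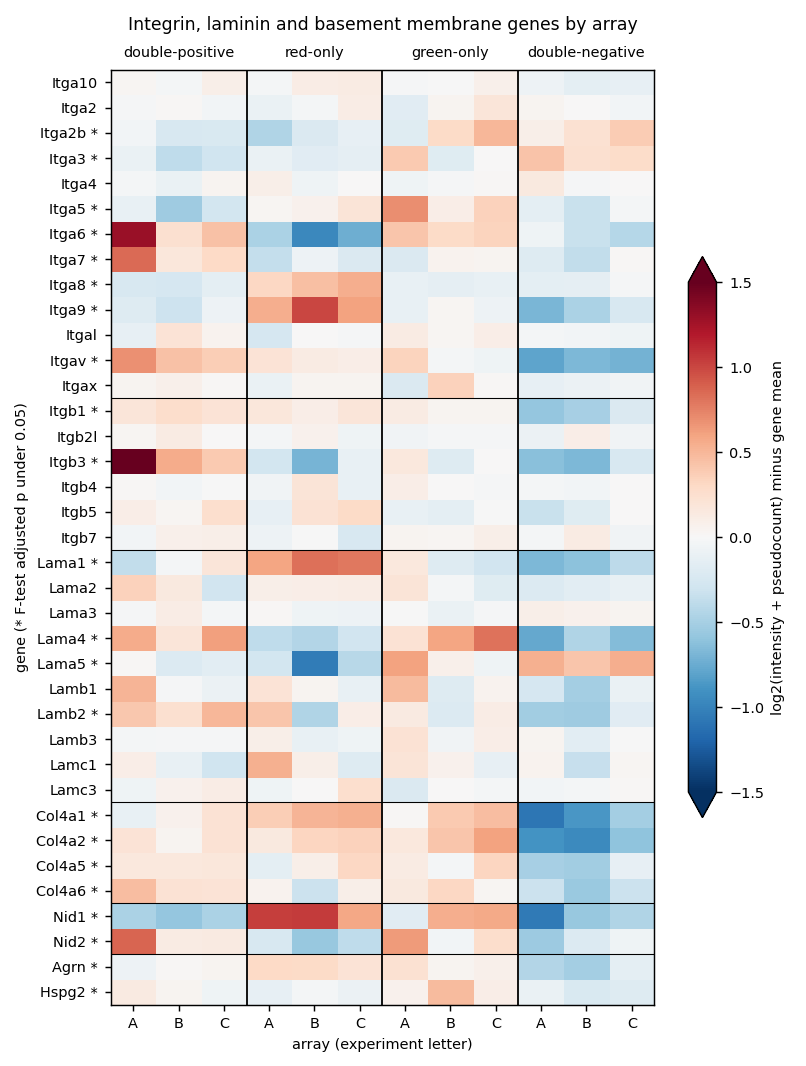
Deviation of each of the 37 tested members (rows) from its own mean over the 12 arrays, on the log2(intensity + pseudocount) scale, by array (columns, grouped by population, letters for experiments); asterisks mark members that passed the F-test. Col4a1, Col4a2, Itgav and Itgb1 are low in the 3 double-negative arrays, Itga9 and Lama1 are high in the 3 red-only arrays, and Itgb3 and Itga6 are highest in double-positive array A.

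Among the integrins, 1 alpha and 1 beta subunit were higher in all 3 reporter-positive populations than in double-negative cells. Itgav encodes the alpha subunit of receptors for vitronectin and fibronectin. Its intensity was 157, 132 and 125 in double-positive cells, 112, 105 and 104 in red-only cells, 122, 93.9 and 91.6 in green-only cells, and 54.0, 58.7 and 57.4 in double-negative cells of experiments A, B and C. The double-negative arrays were all below every other array. The difference from them was 1.22 ± 0.11 (SE), or 2.33-fold on this scale, in double-positive cells (adjusted p = 3.09e-06), 0.87 ± 0.11 in red-only cells and 0.80 ± 0.11 in green-only cells, each from 3 arrays against 3. Double-positive cells also had more Itgav than green-only cells, by 0.42 ± 0.11 (adjusted p = 0.044), a call that was lost without any of 10 of the 12 arrays (0.33 without double-positive array A). Another Itgav probe set, near the array median with a highest value of 11.0, passed for double-positive against double-negative (0.38 ± 0.10) and green-only cells (0.41 ± 0.10). Of the rest, 1 was tested and passed in no comparison. With the experiment letter as a block, the difference from red-only cells (0.35) was also called.

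Itgb1 encodes the beta subunit shared by most receptors for laminin, collagen and fibronectin. Its intensity was 216, 229 and 220.0 in double-positive, 214, 205 and 217 in red-only, 208, 195 and 196 in green-only, and 126, 134 and 164 in double-negative cells. The 3 reporter-positive populations lay close together and the double-negative arrays lay below all of them. The difference from double-negative cells was 0.64 ± 0.09, 0.58 ± 0.09 and 0.50 ± 0.09 in that order (adjusted p = 1.16e-04, 4.50e-04 and 0.00159). Another probe set of Itgb1 passed in the same 3 comparisons, with differences of 0.56, 0.74 and 0.51. A further probe set passed in double-positive cells (0.26) and not in red-only (0.18) or green-only cells (0.21). None of the comparisons between reporter-positive populations was called for Itgb1.

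The other beta subunits that pair with the alpha V chain had other patterns. Itgb5, a partner in a vitronectin receptor, had mean intensities of 157 ± 13 (SD, n = 3) in double-positive, 158 ± 24 in red-only, 135 ± 7.4 in green-only cells and 128 ± 15 in double-negative cells. No pairwise comparison of Itgb5 was called, and with the experiment letter as a block those of double-positive and red-only with double-negative cells were. Itgb3, the partner of the alpha V chain and of the platelet subunit Itga2b, was 59.6, 24.2 and 21.3 in double-positive, 11.9, 7.8 and 13.8 in red-only, 17.4, 12.8 and 15.2 in green-only, and 8.4, 8.0 and 12.2 in double-negative cells. All 3 double-positive arrays were above every other array, and array A was far above the other two. The difference of double-positive from double-negative cells was 1.40 ± 0.28 (adjusted p = 0.00171) and from red-only cells 1.25 ± 0.28 (adjusted p = 0.010). Without double-positive array A these differences were 0.99 ± 0.18 and 0.84 ± 0.18 and both were still called. The difference from green-only cells (0.90 ± 0.28) was called with the letter as a block. A second Itgb3 probe set gave 0.30 ± 0.12 and 0.35 ± 0.12, neither called.

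Itga6 and Itga7 are both alpha subunits of laminin receptors. Itga6 was 425, 204 and 234 in double-positive, 122, 85.3 and 102 in red-only, 230.5, 211 and 217 in green-only, and 163, 135 and 126 in double-negative cells. The red-only arrays were the lowest of all 12, and the double-positive and green-only arrays overlapped. The difference between the latter, 0.31 on the log2 scale, was not called, and it was -0.01 without double-positive array A. Double-positive cells had more Itga6 than red-only cells by 1.39 ± 0.22 (adjusted p = 0.00101) and than double-negative cells by 0.94 ± 0.22 (adjusted p = 0.00464). Without double-positive array A these differences were 1.07 ± 0.14 and 0.62 ± 0.14, both called. Red-only cells had less than green-only cells by -1.08 ± 0.22 (adjusted p = 0.017), which was not called without red-only array B (-0.95). A second probe set passed in the same 3 comparisons. With the letter as a block, red-only cells were also called below (-0.45) and green-only cells above (0.63) double-negative cells.

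Itga7, the alpha subunit of the laminin receptor of muscle, was 29.2, 16.8 and 18.8 in double-positive, 10.4, 13.4 and 11.9 in red-only, 11.8, 15.1 and 14.9 in green-only, and 12.1, 10.2 and 14.7 in double-negative cells. Its double-positive arrays lay above all others, again with array A highest. The difference was 0.62 ± 0.16 against double-negative cells (adjusted p = 0.00874) and 0.65 ± 0.16 against red-only cells (adjusted p = 0.016). Without array A the first was 0.42 and called, and the second was 0.45 and not called, as it was without red-only array A. The cardiomyocyte marker sum given above was highest in the same population. Between double-positive and red-only cells 9 of the 10 markers were called, all higher in double-positive cells, and their part in the Itgb3, Itga6 and Itga7 differences was not tested.

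Itga9 and Itga8 were highest in red-only cells. Itga9, an alpha subunit of receptors for tenascin and other matrix ligands, was 51.7, 72.5 and 53.9 in red-only cells, 29.4, 26.7 and 32.1 in double-positive, 31.3, 34.9 and 32.1 in green-only, and 19.6, 23.3 and 28.2 in double-negative cells. The red-only arrays did not overlap with any other population. Red-only cells exceeded double-negative cells by 1.19 ± 0.13 (adjusted p = 3.80e-05), double-positive cells by 0.91 on the same scale (double-positive minus red-only -0.91 ± 0.13) and green-only cells by 0.77 ± 0.13. Of 2 other Itga9 probe sets, 1 passed for red-only against double-negative cells (0.45 ± 0.09) and for double-positive against red-only cells (-0.35 ± 0.09), and the other passed in no comparison. Green-only cells were called above double-negative cells by 0.42 ± 0.13, a call that was lost without green-only array B or C or double-negative array A or B.

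Itga8, the alpha subunit of the nephronectin receptor, was dim throughout, and it exceeded the array medians in red-only cells. It was 8.1, 9.3 and 10.2 there, and between 4.2 and 5.6 on the other 9 arrays. The red-only difference was 0.54 ± 0.08 against double-negative, 0.55 ± 0.08 against green-only and 0.65 against double-positive cells (double-positive minus red-only -0.65 ± 0.08, adjusted p = 1.05e-04). Its mean was 9.20 in red-only cells, and 4.39, 4.97 and 5.06 in double-positive, green-only and double-negative cells, below the filter at 5.23. With the filter, Itga8 was therefore tested only because of the population in which it was called high. These 3 calls held in every alternative setting in which Itga8 was tested.

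The remaining alpha subunits with calls were placed by single comparisons. Itga5, the alpha subunit of the classical fibronectin receptor, had means of 64.9 ± 15 in green-only, 51.7 ± 3.4 in red-only, 42.5 ± 5.0 in double-negative and 38.4 ± 6.1 in double-positive cells (SD, n = 3). Green-only cells were called above double-negative cells (0.55 ± 0.14) and double-positive cells below green-only cells (-0.69 ± 0.14). Both calls held without green-only array A, at 0.39 and -0.53, and neither was passed by the second Itga5 probe set (0.23 and -0.28). The former was lost without double-negative array B and the latter without double-positive array B. With the letter as a block, double-positive cells were also called below red-only cells (-0.40). Itga3, a laminin receptor subunit of epithelia, had means of 41.4 ± 3.3 in double-negative, 34.8 ± 8.1 in green-only cells, 29.2 ± 0.82 in red-only cells and 26.5 ± 3.2 in double-positive cells, and was called lower in double-positive (-0.57 ± 0.13) and red-only cells (-0.45 ± 0.13). The red-only call was lost without double-negative array A or red-only array B or C, and with the letter as a block double-positive cells were also below green-only cells (-0.33). Without green-only array A, green-only cells were called below double-negative cells as well (-0.40). Itga2b, the megakaryocyte and platelet subunit, was called lower in red-only than double-negative cells (-0.50 ± 0.15), a call lost without any of 4 of the arrays compared. The block added calls for double-positive against double-negative (-0.40) and red-only against green-only cells (-0.47). Of 11 blood markers on the array, the leukocyte gene Ptprc stayed under the array median on all arrays. The summed intensity of the list was 1120 to 2023 in double-negative cells against 116 to 209 in the other populations. Hbb-bh1, Hba-x and Hbb-y dominated it, with double-negative means of 793, 446 and 160 beside a mean sum of 1479. These genes and Pf4 were called lower than in double-negative cells in every reporter-positive population. Tal1 was called higher in both single-positive populations (0.86 with red alone, 0.81 with green alone). The remaining tested markers of the list were not called against double-negative cells. For green-only arrays the sum of the list was 142 to 193, yet Itga2b differed from its double-negative level by -0.03, which was not called. The part of the blood markers in the Itga2b difference was not tested.

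**Figure D2:**
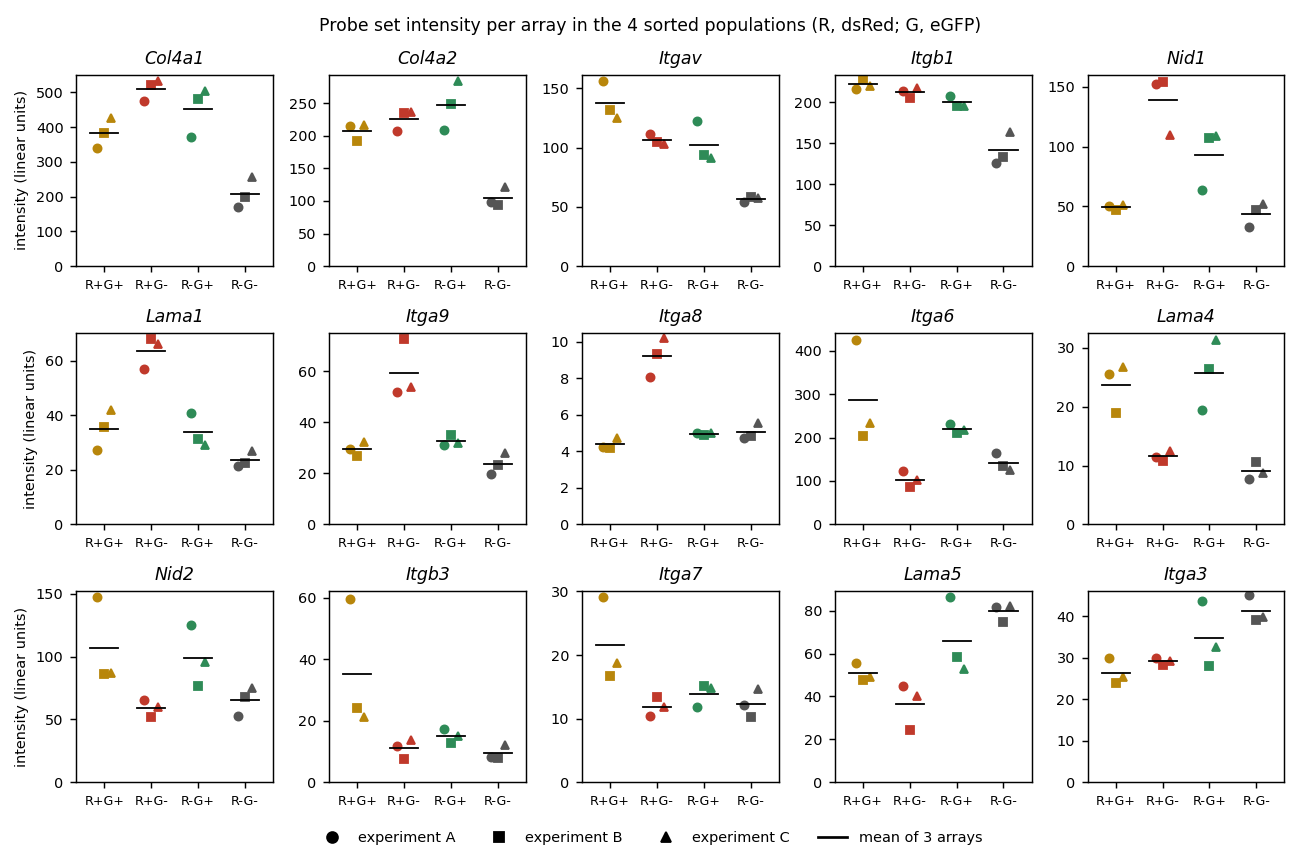
Probe set intensity in linear units (vertical axes, from 0, on separate scales) for 15 members on each of the 12 arrays, by population (R, dsRed; G, eGFP); symbols mark the experiment and bars the mean of 3 arrays. Nid1 is high in R+G- and R-G+ cells and near the double-negative level in R+G+ cells, while double-positive array A lies above arrays B and C for Itga6, Itgb3, Itga7 and Nid2.

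Each of the laminin alpha chains that differed had its own pattern over the populations. Lama1, the alpha chain of the laminin of early embryos, was 56.8, 68.0 and 66.3 in red-only, 27.4, 35.8 and 41.9 in double-positive, 41.0, 31.5 and 29.3 in green-only, and 21.3, 22.4 and 26.8 in double-negative cells. The red-only arrays stood above all others, and double-positive and green-only arrays overlapped. Red-only cells exceeded double-negative cells by 1.30 ± 0.15 (adjusted p = 4.30e-05) and green-only cells by 0.84 ± 0.15, and double-positive cells lay below red-only cells (-0.81 ± 0.15, adjusted p = 0.00283). Double-positive and green-only cells were also called above double-negative cells, by 0.49 ± 0.15 and 0.46 ± 0.15. The former call was lost without double-negative array A or B or double-positive array B or C, and the latter without any of 7 arrays, among them green-only array A (0.33).

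Lama4, the alpha chain typical of vascular and muscle basement membranes, had the opposite ranking of red-only and green-only cells. It was 25.5, 18.9 and 26.7 in double-positive, 19.5, 26.4 and 31.4 in green-only, 11.4, 10.8 and 12.4 in red-only, and 7.7, 10.7 and 8.8 in double-negative cells. The 6 green-positive arrays were all above the 6 others. The difference from double-negative cells was 1.07 ± 0.15 in double-positive (adjusted p = 1.04e-04) and 1.17 ± 0.15 in green-only cells (adjusted p = 1.13e-04), and a second, dimmer probe set passed in both (0.58 and 0.59). Double-positive cells exceeded red-only cells by 0.82 ± 0.15 and red-only cells lay below green-only cells (-0.91 ± 0.15). The second probe set did not pass in these (0.49 and -0.50). The summed intensity of 8 smooth muscle markers was 3945 to 5140 in double-positive, 2531 to 2705 in green-only, 958 to 1456 in red-only and 375 to 477 in double-negative cells, with Myh11 and Mylk under the array median in every population. Summed, these markers and the cardiomyocyte markers each ranked the populations with the green-positive ones on top. Acta2 dominated the smooth muscle sum, with a mean of 3924 beside a mean sum of 4407 in double-positive cells. Cnn1 was also called higher than in double-negative cells for both green-positive populations. Tpm2 and Lmod1 were called so in double-positive cells alone, and Tagln and Smtn in neither. The part of either list in the Lama4 differences was not tested.

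Lama5, the alpha chain typical of epithelial basement membranes, was highest in double-negative cells. Its values there were 81.7, 74.8 and 82.3, against 86.1, 58.2 and 52.6 in green-only, 55.8, 47.5 and 48.9 in double-positive and 44.8, 24.6 and 40.3 in red-only cells. Green-only array A was the single array above all double-negative arrays. The difference from double-negative cells was -1.08 ± 0.19 in red-only (adjusted p = 0.0012) and -0.61 ± 0.19 in double-positive cells (adjusted p = 0.0258), and a second probe set passed in both (-0.83 and -0.58). The double-positive call was lost without double-positive array B or C or double-negative array A or C. A call between red-only and green-only cells (-0.79 ± 0.19) was lost without any of 10 of the 12 arrays (-0.58 without green-only array A and -0.79 without double-positive array A), and one between double-positive and red-only cells (0.46) was made with the block alone. The 10 epithelial markers summed to 317 to 561 in double-positive, 313 to 654 in red-only, 1409 to 4447 in green-only and 2118 to 2765 in double-negative cells, with 9 of 10 called lower in double-positive and 10 of 10 in red-only cells than in double-negative cells. None of these markers was under the array medians on all 3 arrays of a population, and their part in the Lama5 and Itga3 differences was not tested.

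Of the 5 beta and gamma chains, Lamb2 alone was called. Lamb1, the beta chain of most embryonic laminins, averaged 82.9 ± 21 in double-positive, 76.7 ± 8.9 in red-only, 81.8 ± 21 in green-only cells and 60.1 ± 9.1 in double-negative cells (SD, n = 3). Its differences of 0.42 ± 0.19, 0.34 ± 0.19 and 0.40 ± 0.19 from double-negative cells were not called; with the experiment letter as a block the first and the third were. Lamc1, the common gamma chain, averaged 79.6 ± 11, 97.0 ± 26, 88.5 ± 10.02 and 80.8 ± 12 in the same order, with differences of -0.02 to 0.23 from double-negative cells and standard errors of 0.17. Lamb2, the beta chain of muscle and kidney membranes, rose from 8.90 ± 2.0 in double-negative to 18.2 ± 2.0 in double-positive cells (0.79 ± 0.18, adjusted p = 0.00531), and with the block its red-only (0.43) and green-only (0.42) differences were called too. The means of the remaining laminin chains, Lama2, Lama3, Lamb3 and Lamc3, ranged from 5.28 to 15.03 over the populations, and none of these was called in any pairwise comparison.

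Collagen IV was higher in the reporter-positive populations. Against double-negative cells, all 4 tested chains were higher in double-positive and green-only cells and 3 of 4 in red-only cells. The chains alpha 1 and alpha 2, which assemble together in nearly every basement membrane, had larger differences than alpha 5 and alpha 6. Col4a1 was 339, 384 and 425 in double-positive, 474, 522 and 533 in red-only, 371, 482 and 505 in green-only, and 171, 198 and 256 in double-negative cells. Every double-negative array lay below every other array. The differences from double-negative cells were 0.88 ± 0.15 (adjusted p = 5.04e-04), 1.29 ± 0.15 (adjusted p = 4.94e-05) and 1.11 ± 0.15 (adjusted p = 1.67e-04), and a second probe set gave 0.72, 1.10 and 0.996, all called. Double-positive cells lay below red-only cells (-0.41), a difference called with the letter as a block.

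Col4a2 was 215, 192 and 217 in double-positive, 207, 234 and 237 in red-only, 208, 248 and 284 in green-only, and 97.7, 94.3 and 121 in double-negative cells. The double-negative arrays stood alone at the bottom, and the other populations overlapped. Its differences from double-negative cells were 0.97 ± 0.12 (adjusted p = 4.55e-05), 1.09 ± 0.12 (adjusted p = 3.86e-05) and 1.21 ± 0.12 (adjusted p = 1.66e-05). The genes Col4a1 and Col4a2 lie head to head on chromosome 8. In the RefSeq promoter table of build GRCm38.p6 their starts are 21 bases apart on opposite strands, and the windows of 250 bases before to 50 bases after each start share 78 bases. Over the 12 arrays their log2 values correlated at r = 0.95, and their deviations from the population means, which leave out the differences between populations, at r = 0.79. Both genes were read from the same 12 RNA samples, which share array and experiment effects, so these coefficients are descriptions. Parietal endoderm, an extraembryonic tissue, secretes much laminin and collagen IV. Its markers and those of visceral endoderm, 13 in all, summed to 173 to 315 in double-positive, 206 to 337 in red-only, 352 to 1480 in green-only and 284 to 835 in double-negative cells, with Cubn under the array median in all but green-only cells. The single markers did not all follow the sum. Against double-negative cells, 3 were called lower in double-positive cells, where 31.5% of all genes were called. In red-only cells Plat (0.56 ± 0.12) and Sox7 (0.87 ± 0.27) were called higher and Foxa2 (-1.20 ± 0.37) lower, beside 23.6% of all genes. In green-only cells Sox7 alone was called, higher, beside 20.7% of all genes. Double-negative cells also stood apart by 10 pluripotency markers, which summed to 1384 to 1703 there and to 161 to 354 in the other populations, where Nanog, Zfp42, Dppa4 and Dppa2 were under the array median. Of 9 tested, 6 were called lower and 1 higher in double-positive cells, 7 lower in red-only cells and 6 lower in green-only cells. The sum of 10 neural markers was 248 to 333 in double-negative cells and 140 to 189 elsewhere, with Zic1, Neurod1 and Neurog2 under the array median in every population. Of 7 tested, 4, 3 and 2 were called lower in the same order. For both lists, the shares of all genes called lower were 17.6%, 12.7% and 11.4% in that order. The part of these 3 marker lists in the collagen IV and Lama1 differences, and of the last 2 in the other differences from double-negative cells, was not tested.

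**Figure D3:**
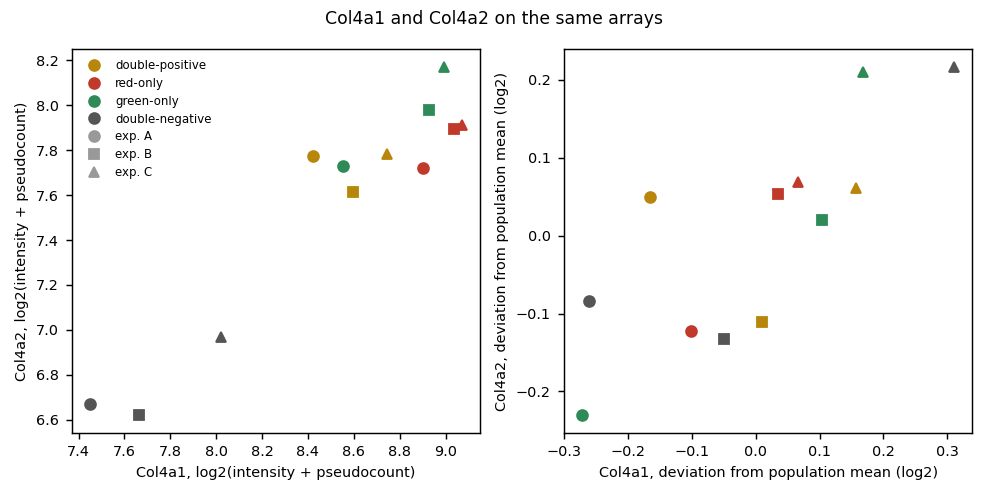
Col4a1 (horizontal) against Col4a2 (vertical) on the 12 arrays, as log2(intensity + pseudocount) on the left and as deviations from the mean of each population on the right; colours mark populations and symbols experiments. The double-negative arrays are lowest for both genes, and the deviations on the right rise together from green-only array A to double-negative array C (r = 0.79).

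The other collagen IV pair, the chains alpha 5 and alpha 6, had smaller differences. Col4a5 averaged 27.9 ± 0.17 in double-positive, 26.4 ± 4.8 in red-only, 27.5 ± 3.8 in green-only cells and 18.0 ± 3.7 in double-negative cells, with called differences of 0.54, 0.46 and 0.52 (SE 0.13). The red-only call was lost without any of 4 arrays and the green-only call without any of 3. A second Col4a5 probe set passed in double-positive (0.79) and green-only cells (0.70) and not in red-only cells (0.57). Col4a6 averaged 28.2 ± 3.3, 21.3 ± 3.8, 25.4 ± 2.9 and 15.9 ± 1.8 in the same order, and was called in double-positive (0.69 ± 0.12) and green-only cells (0.56 ± 0.12), and with the block in red-only cells (0.34). A second Col4a6 probe set passed in double-positive cells (0.42) and not in green-only cells (0.32). The table places Col4a5 and Col4a6 on the X chromosome with starts 1343 bases apart on opposite strands. Their log2 values correlated at r = 0.68 over the 12 arrays and their deviations within populations at r = -0.04. Col4a3 and Col4a4, the chains of the kidney filter and the lens, were below the filter, with population means of 4.66 to 5.20.

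The nidogens, which bridge laminin and collagen IV, ranked the populations in different ways. Nid1 was 152, 154 and 110 in red-only, 63.5, 107 and 109 in green-only, 50.6, 47.0 and 50.8 in double-positive, and 32.6, 47.2 and 51.8 in double-negative cells. Every red-only and green-only array was above all double-positive and double-negative arrays, which overlapped with each other. Red-only cells exceeded double-negative cells by 1.58 ± 0.20, or 2.99-fold (adjusted p = 1.16e-04), and green-only cells did so by 1.005 ± 0.20 (adjusted p = 0.00324). Double-positive cells lay below red-only cells (-1.40 ± 0.20, adjusted p = 5.80e-04) and below green-only cells (-0.82 ± 0.20, adjusted p = 0.0318). The last call was lost without any of 5 arrays, among them double-positive array A (-0.84, with a larger standard error of 0.23), and the difference was -1.07 without green-only array A. A second Nid1 probe set passed for red-only and green-only against double-negative cells (1.11 and 0.82) and did not pass in the comparisons with double-positive cells (-0.71 against red-only cells).

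Nid2 was 148, 86.2 and 87.1 in double-positive, 125, 76.6 and 95.7 in green-only, 65.8, 51.7 and 59.6 in red-only, and 52.8, 67.9 and 75.0 in double-negative cells. The 6 green-positive arrays all exceeded the 6 others, with double-positive array A highest. Double-positive cells were called above double-negative (0.65 ± 0.21) and red-only cells (0.78 ± 0.21). Without double-positive array A the differences were 0.40 and 0.53 and neither was called. The former call was also lost without double-negative array A or B, and the latter without red-only array B or C. The block added calls for green-only against double-negative (0.56) and red-only against green-only cells (-0.69). Correlations were read for Nid1 with Itga9 and Lama1 alone, and for Nid2 with Itga6 and Lama4 alone. Nid1 correlated with Itga9 at r = 0.89 over the 12 arrays (0.56 within populations) and with Lama1 at r = 0.74 (-0.29). Nid2 correlated with Itga6 at r = 0.87 (0.63) and with Lama4 at r = 0.72 (0.01). The values over the 12 arrays contain the population differences given above, which these pairs share. All were read from the same RNA samples, so these coefficients are descriptions too.

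The promoters of Itgb1 and Nid1 are shown for contrast. Itgb1 was called higher than in double-negative cells in every reporter-positive population, and Nid1 in both single-positive ones and not in double-positive cells. Each run is the 250 bases before the RefSeq start on build GRCm38.p6, with both genes on the plus strand, and capitals mark matches to the GC box (GGGCGG or its complement CCGCCC) and the CCAAT box (CCAAT or ATTGG).
Itgb1 (chr8:128685404-128685653): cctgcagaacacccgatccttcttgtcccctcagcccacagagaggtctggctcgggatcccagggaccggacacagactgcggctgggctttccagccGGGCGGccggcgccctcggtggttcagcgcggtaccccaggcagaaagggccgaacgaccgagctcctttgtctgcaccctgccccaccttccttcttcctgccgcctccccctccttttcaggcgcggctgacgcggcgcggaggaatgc
Nid1 (chr13:13437352-13437601): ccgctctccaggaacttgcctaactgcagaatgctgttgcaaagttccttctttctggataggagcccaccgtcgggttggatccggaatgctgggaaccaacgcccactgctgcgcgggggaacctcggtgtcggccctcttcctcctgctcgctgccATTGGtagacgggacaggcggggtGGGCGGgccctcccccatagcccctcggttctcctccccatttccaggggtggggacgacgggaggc
The Itgb1 window held 1 GC box and no CCAAT box, and the Nid1 window held 1 of each. A GC box was found in 32.7% and a CCAAT box in 33.8% of the 32851 promoters of the table in windows of the same length. Of the 31 members with a promoter in the table, 14 held a GC box and 8 a CCAAT box. TATAAA was in no member and in 12.4% of all promoters, CANNTG in 21 members and 66.2% of all, and AGATAA in 1 member and 9.99% of all. Both strands were searched, no motif contains another, and CANNTG reads alike on both strands. A match is a stretch of letters, not a measured site.

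Of the proteoglycans, Agrn was called in all 3 comparisons with double-negative cells and Hspg2 in 1. Agrn, which encodes agrin, averaged 182 ± 8.0 in double-positive, 220.0 ± 7.6 in red-only, 198 ± 15 in green-only cells and 141 ± 20 in double-negative cells, with called differences of 0.36, 0.63 and 0.48 (SE 0.10). The double-positive call was lost without double-negative array B. A second Agrn probe set, with no value above 7.51, gave -0.11, -0.18 and -0.22, none called. Hspg2, which encodes perlecan, averaged 157 ± 11, 143 ± 4.5, 178 ± 30 and 134 ± 6.6 in the same order and was called in green-only cells (0.38 ± 0.10), but not without green-only array B or double-negative array B or C.

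**Figure D4:**
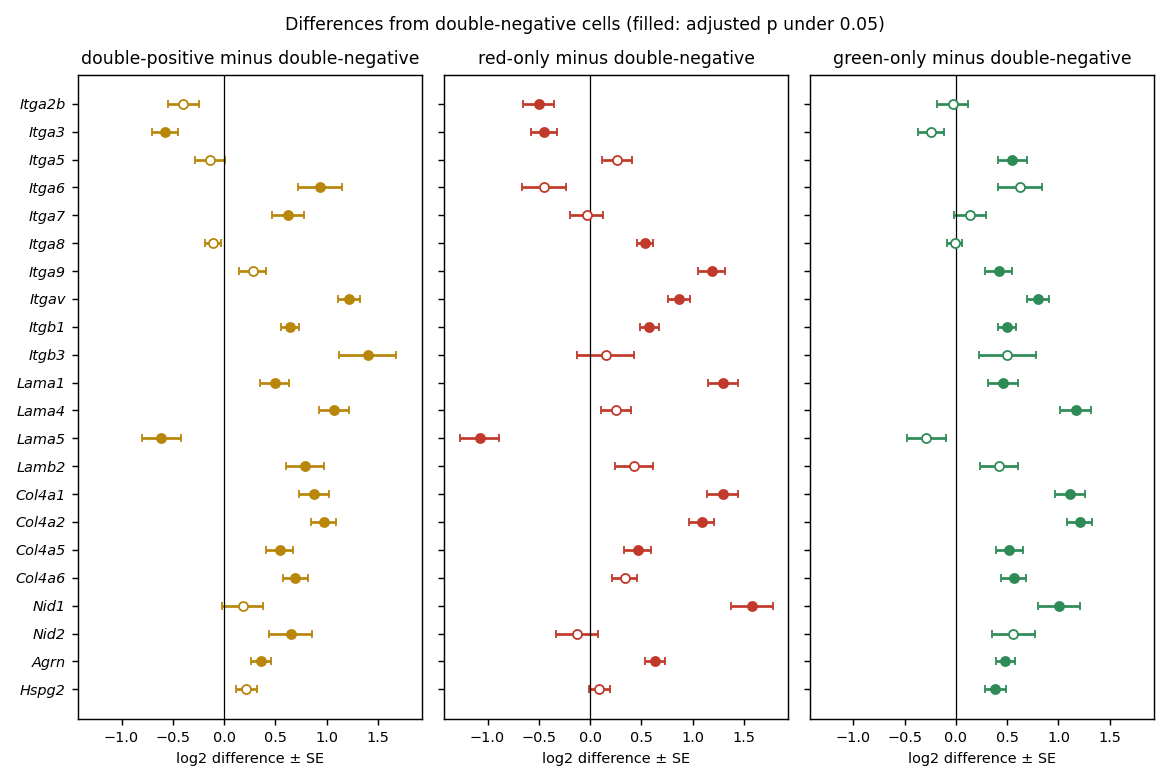
Log2 difference from double-negative cells (horizontal axes, bars of 1 SE, 3 arrays against 3) for the 22 members that passed the F-test, 1 panel per reporter-positive population; filled points passed at an adjusted p under 0.05. Col4a1, Col4a2, Itgav, Itgb1 and Agrn are to the right of 0 and filled in all 3 panels, Nid1 is filled in the single-positive panels, and Lama5 lies left of 0.

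The sort allows a question about both reporters at once, namely whether the difference linked to green is the same in cells with and without red. It was tested as an interaction, double-positive minus red-only minus green-only plus double-negative. In this test 9 of the 37 members passed, against 10.5% of all genes, and all 9 had a negative value, against 5.67% of all genes called in that direction. At an unadjusted p under 0.05 there were 3 positive and 11 negative members in the same limma fit, a threshold for which the share of all genes is not given. The median was -0.12 for the members and 0.03 for all genes. A negative value means that double-positive cells lay below the sum of the red-only and green-only differences.

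Nid1 had the smallest adjusted p, with an interaction of -2.40 ± 0.29 (adjusted p = 2.80e-04). Its red-only and green-only differences add up to 2.59, and the double-positive difference was 0.18. Col4a2 followed with -1.33 ± 0.17 (adjusted p = 4.50e-04), where the sum was 2.30 and the double-positive difference 0.97. In both genes no single array decided the result: leaving out each array in turn gave -2.65 to -2.22 for Nid1 and -1.44 to -1.22 for Col4a2. Col4a1 (-1.53), Itga9 (-1.33), Lama1 (-1.26), Itga5 (-0.95), Agrn (-0.75), Itga8 (-0.63) and Itgb1 (-0.43) also passed. Itga8 was tested only because of its red-only values, so its negative value lends no support to the count. The Itgb1 call was lost without any of 11 of the 12 arrays (-0.42 without double-positive array A and -0.40 without green-only array A), and for Agrn, Itga5 and Itga9 another probe set did not pass. With the experiment letter as a block, Itga6 (0.76) and Lama5 (0.76), with positive values, and Itgav (-0.45) passed as well. Lama5 also passed without green-only array A (0.96).

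The 9 members are given in 2 sets, by whether the double-positive difference from double-negative cells was called. The sets depend on that threshold, with Agrn (0.36) and Itga9 (0.28) on either side of it, and were not compared by a test. For Nid1, Itga5 and Itga8 the double-positive difference from double-negative cells was not called (0.18, -0.14 and -0.11), and the same held for Itga9 (0.28). For Col4a1, Col4a2, Lama1, Agrn and Itgb1 double-positive cells were called above double-negative cells, by less than the sum of both single-positive differences. Several marker lists also moved in the interaction. Of 12 endothelial markers, 9 passed the interaction test, all negative, 5 were called higher in red-only cells than in double-negative cells, and 8 were in green-only cells. In double-positive cells none was, neither after adjustment nor at an unadjusted p under 0.05 in the limma fit. Their summed intensity was 361 to 493 in double-positive, 769 to 1013 in red-only, 508 to 1230 in green-only and 295 to 434 in double-negative cells, and Emcn was under the array median on all double-positive and double-negative arrays. Of 10 cardiomyocyte markers 6 passed, all negative, with a list median of -1.74, and of 9 tested pluripotency markers 6 passed, all positive, with a median of 2.63. The part of these lists in the interaction of the members was not tested.

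**Figure D5:**
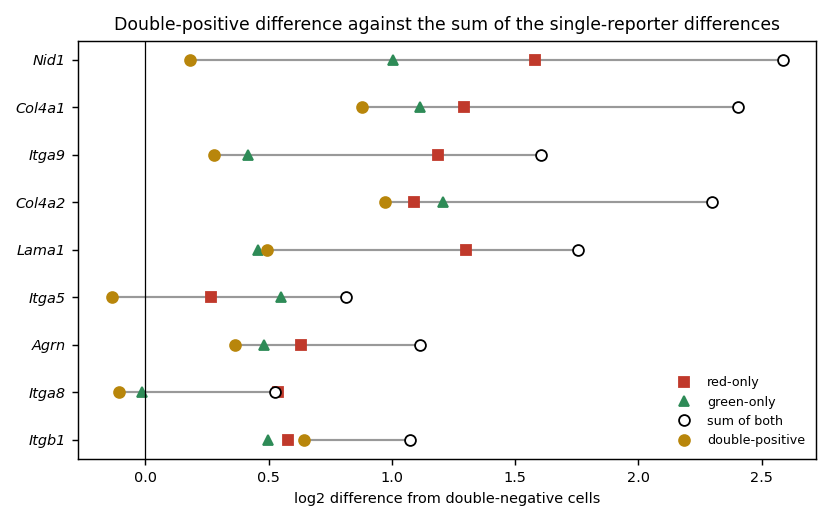
For the 9 members that passed the interaction test, log2 difference from double-negative cells in red-only, green-only and double-positive cells, and the sum of the red-only and green-only differences (open circles); lines join the double-positive value to that sum. The line is longest for Nid1, from 0.18 to 2.59, and the double-positive point lies left of the open circle for all 9.

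Several integrins of blood cells and epithelia were near or below the general level. The members below the filter were Itga1, Itgae, Itgam, Itgb2, Itgb6, Itgb8, Col4a3 and Col4a4, with population means of 2.81 to 5.43. Together with Itga10 and Lama3, all of these but Itga1 were under the array median on all 12 arrays, 9 members in all. These include Itgam and Itgb2, the subunits of a leukocyte receptor, and Itgb6, an epithelial partner of the alpha V chain. Itga2, Itga4, Itga10, Itgal, Itgax, Itgb2l, Itgb4 and Itgb7 passed the filter with population means of 4.77 to 13.4 and were called in no pairwise comparison.

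Genes that work with the members were read from lists of known partners, beside the shares of all genes called against double-negative cells, 31.5% in double-positive cells, 23.6% in red-only cells and 20.7% in green-only cells. Among 25 tested adaptors, which tie integrin tails to actin, 11 were higher and 3 lower in double-positive cells than in double-negative cells, 12 and 2 in red-only cells, and 13 and 1 in green-only cells. The muscle filamin Flnc was higher by 2.12 ± 0.09 in double-positive cells, 1.12 in red-only cells and 1.37 in green-only cells, and the integrin activator Fermt2 (kindlin-2) by 1.32, 1.06 and 1.03. Itgb1bp2 (melusin), a muscle partner of the beta 1 tail, was higher by 1.82 ± 0.25 in double-positive cells, and the integrin-linked kinase Ilk by 0.99, 0.70 and 0.72. The median over the list was 0.16, 0.29 and 0.34 in the 3 comparisons.

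Of 12 tested genes for folding and modifying collagen, 4 were called in double-positive cells (near the 31.5% of all genes), 8 in red-only cells (background 23.6%) and 9 in green-only cells (20.7%). All were higher than in double-negative cells, with medians of 0.28, 0.45 and 0.39. At an unadjusted p under 0.05 the counts were 5, 10 and 9, again all higher, with no share of all genes given at that threshold. The collagen chaperone Serpinh1 was higher by 1.28, 1.37 and 1.12 and the prolyl hydroxylase P3h2 by 1.40, 1.11 and 1.03. In the interaction test 6 of the 12 passed, against 10.5% of all genes, all negative, with a list median of -0.60.

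Among 16 tested integrin ligands outside the member group, 4 were higher and 1 lower in double-positive, 6 and 1 in red-only, and 6, all higher, in green-only cells. The 5 calls in double-positive cells are near the 31.5% of all genes, and the 7 and 6 others stand beside 23.6% and 20.7%. Emilin1, an elastic fibre protein, was higher by 1.55 ± 0.21, 2.10 ± 0.21 and 1.10 ± 0.21, and fibronectin, Fn1, was called higher in red-only (1.198 ± 0.23) and green-only cells (0.92 ± 0.23). Of 21 other tested basement membrane genes and receptors, 7 were lower and 2 higher in double-positive cells, against 6 and 4 in red-only and 4 and 4 in green-only cells, beside the same background shares. Those lower in double-positive cells included the syndecans Sdc1 (-1.55 ± 0.12) and Sdc4 (-1.30 ± 0.14) and Frem2 (-1.20 ± 0.18), a protein that anchors epithelia to the dermis. Col18a1, a collagen of epithelial and vascular membranes, was called higher in red-only (0.97 ± 0.17) and green-only cells (0.83 ± 0.17). Of the 10 epithelial markers, 9 were called lower in double-positive cells, 10 in red-only cells and 2 in green-only cells, and their part was not tested.

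Of 9 tested matrix metalloproteinases and inhibitors, 5 were called in red-only cells, all higher than in double-negative cells, against 2 higher and 2 lower in double-positive cells and 3, all higher, in green-only cells. The background shares of all genes were 23.6%, 31.5% and 20.7% in that order. Mmp2, a gelatinase that cleaves collagen IV, had a mean of 191 in red-only cells and was higher there by 1.14 ± 0.15, and in double-positive cells it was lower than in double-negative cells (-0.74 ± 0.15). Reck, a membrane-bound inhibitor of such enzymes, was higher by 1.33 ± 0.14 in red-only and 0.78 ± 0.14 in double-positive cells.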

How the data were processed

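The deposited values are probe set intensities on a linear scale, 1 per probe set and array, and the submitters' processing notes name MAS5; its role, version and scaling are not given in the sources used here. Sample titles gave the groups, because the description of the sort names 1 population in 2 places. Of 45101 probe sets, 64 controls and 932 with several genes were left out, 34945 had 1 gene by the platform annotation and 9160 had none. The analysis used log2(intensity + 4.10), where the pseudocount is the 25th percentile of the values, without further normalization. A filter at the 40th percentile of mean log2 values (intensity 5.23) was applied. In R 4.3.3, limma 3.58.1 (lmFit, eBayes) was fitted to all 12 arrays, with 1 mean per population and 8 residual degrees of freedom, and adjusted by Benjamini-Hochberg over 13698 genes. The number of arrays, 3 per population, limits the precision, and there are no detection calls. Sequences come from RefSeq tables of build GRCm38.p6, which matched 31 of the 45 members.

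Experiment letters were checked as pairing: deviations from population means correlated at 0.116 to 0.424 in all 18 pairs of arrays of one letter and at 0.0714 at most in other pairs, so a fit with the letter as a block was an alternative. Other alternatives were pseudocounts of 1 and 6.52, quantile normalization, no filter and a filter at the 60th percentile, other probe sets, an intensity trend with robust variance, only the arrays compared, and each array left out. Members that passed the F-test with a largest pairwise difference of at least 1 were given with every array value. Itgb1 and Nid2 were given in the same way although their differences were smaller. Itga7 and Itga8, also smaller, were added after their values were seen. Partner chains were named whatever their values, other members by their means, and of each list up to 4 genes with the largest called difference in a comparison. Members and lists were chosen with earlier results of these data known. The procedure was tested on simulated data.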

Additional observations from a re-analysis of the deposited data

Results flagged for a closer look

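For 9 members the difference linked to the green reporter was not the same in cells with and without the red reporter, by the interaction test in limma, with 3 arrays in each of the 4 populations. The value, double-positive minus red-only minus green-only plus double-negative on the log2 scale, was -2.40 for Nid1, -1.53 for Col4a1, -1.33 for Col4a2, -1.33 for Itga9, -1.26 for Lama1, -0.95 for Itga5, -0.75 for Agrn, -0.63 for Itga8 and -0.43 for Itgb1. All 9 were negative, among 37 members tested. Itga8 passed the filter only through red-only cells, where it was high, so its negative value lends no support to that count. Of all genes 10.5% passed, 5.67% with a negative value. The Itgb1 call was lost in most fits with 1 array left out and with a pseudocount of 1. Another probe set did not pass for Agrn (0.28, the opposite sign), Itga5 (-0.43) and Itga9 (-0.16). For Nid1 the green-only and red-only arrays lay above every double-positive and double-negative array.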

How the results depend on the processing

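Of the 60 pairwise calls among the members, 27 held in every alternative setting. Counting a member where any other probe set of its gene passed, called members numbered 9 of 11 for double-positive against double-negative cells, 6 of 9 for red-only and 6 of 11 for green-only against double-negative cells, 2 of 5 for double-positive against red-only, 1 of 3 for double-positive against green-only and 1 of 4 for red-only against green-only cells. Read instead from 1 fixed other probe set per gene, 21 pairwise calls stayed, 17 were lost and 5 turned in sign. The signs that turned were those of Agrn against double-negative cells (-0.11 in double-positive, -0.18 in red-only, -0.22 in green-only cells) and in the interaction (0.28), and of Itgav in double-positive against double-negative (-0.0093) and green-only cells (-0.0196). For Itgav a different probe set passed in both (0.38 and 0.41). None of these turned values was called, and the probe sets that gave them are near the array median. The comparison of double-positive with green-only cells, with 3 calls, was the least stable: 1 without the filter, 5 with the replicate block, and 0 in limma with only the arrays compared, where 7 members had an unadjusted p under 0.05. Leaving out each array in turn gave 0 to 4 calls there (0 without double-positive array B, 1 without double-positive array A or green-only array C), 8 to 16 for green-only against double-negative cells (8 without double-negative array B), 13 to 17 for double-positive and 11 to 14 for red-only against double-negative cells, 7 to 12 for double-positive against red-only, 4 to 6 for red-only against green-only cells, 18 to 22 for the F-test and 8 to 9 for the interaction; the cause was not tested. The paired fit with the replicate block gained 19 pairwise calls and lost 0, and changed no other pairwise call. Among results not called, 50 signs turned in some setting.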
